A study of Mus musculus with 23 samples.

Results

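The comparison described here sets cells homozygous for a receptor with both the D and the L change (GRD+L/D+L) against cells homozygous for the D change alone (GRD/D), so that the difference between them is the addition of the L change to a receptor that already carries D. All libraries of these 2 genotypes were taken, which are 11 of the 23 RNA-seq libraries of the series, 6 from GRD+L/D+L and 5 from GRD/D. The cells were primary fibroblasts of FVB/NJ mice (mouse embryonic fibroblasts, MEFs), made from mid-gestation embryos after the head and organs had been removed, and each culture of a genotype came from a different mouse. They were exposed to 10 nM dexamethasone (Dex), a synthetic glucocorticoid, or to its solvent (vehicle) for 5 h. GRD+L/D+L had 3 Dex and 3 vehicle libraries, and GRD/D had 3 Dex and 2 vehicle libraries. D, which both genotypes share, replaces an alanine by a threonine where the DNA-binding domains of a dimer meet, and L replaces an isoleucine by an alanine in the part that binds the ligand. The D+L line goes back to a single founder pup obtained by genome editing, and the embryos of the 2 genotypes came from separate intercrosses of heterozygous mice. The L change, the line, the litter and the mix of cells in a culture therefore cannot be told apart.

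The glucocorticoid receptor (GR, encoded by Nr3c1) is a nuclear receptor that waits in the cytoplasm bound to chaperones such as HSP90 and FKBP51, moves to the nucleus once a glucocorticoid binds to it, and there raises or lowers transcription. As a dimer it binds palindromic response elements near genes such as Fkbp5, Per1, Tsc22d3 and Dusp1, which are classical glucocorticoid-induced genes, while as a monomer it can act through other factors. Fibroblasts are well known to respond to glucocorticoids with altered matrix, cytokine and metabolic gene expression.

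Expression is given as CPM, the counts of a gene set to a common library size after scaling of the libraries to each other, and differences between genotypes as log2 fold changes (LFC, GRD+L/D+L minus GRD/D) with their standard error (SE). Dex and vehicle libraries of a culture are not independent, so the libraries with the same genotype and number were summed and 3 cultures were compared with 3. GRD/D culture 3 held its Dex library alone, and treatment was not a term in this fit. Genes that respond to Dex can shift with this, as Fkbp5 had an LFC of -1.41 in the sums and of -1.11 over the 11 libraries with treatment as a covariate. A gene was called, and is said to have risen or fallen, where its LFC was 1 or more in size and its adjusted p did not exceed 0.05. The 11 libraries held 17388000 to 23117100 counts each (rounded).

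The numbers did not behave alike in both genotypes. All 6 GRD+L/D+L libraries were male by Xist and Y-linked genes, and Dex and vehicle libraries of the same number deviated from their group means together, with correlations of 0.91, 0.82 and 0.70. In GRD/D, Dex 1, Dex 2 and vehicle 1 were female, and Dex 3 and vehicle 2 were male. GRD/D vehicle 2 therefore cannot come from the same embryo as GRD/D Dex 2, and its highest Spearman correlation was with Dex 3 (0.995, against 0.982 with Dex 2). The sum for GRD/D culture 2 thus holds 1 female and 1 male library, and values for a regrouped sum are given below. GRD+L/D+L culture 1 stood apart from cultures 2 and 3, with Spearman correlations of 0.953 to 0.960 to their libraries, while cultures 2 and 3 reached 0.991 to 0.992 with each other.

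The cells were fibroblasts by their markers in both genotypes. None of the 12 fibroblast markers was at 0 in any library, their summed level was 53307 to 58926 CPM in GRD/D and 46264 to 66941 CPM in GRD+L/D+L, and none of the 12 was called. Macrophage markers, by contrast, differed. Their summed level over 13 genes was 920, 1817, 287, 1009 and 294 CPM in GRD/D Dex 1, 2, 3 and vehicle 1, 2, and 9.28 to 87.2 CPM in GRD+L/D+L, with no overlap between the genotypes. C1qa, C1qb, Tyrobp and Ptprc had no count in GRD+L/D+L Dex 2 and C1qa and Ptprc had none in vehicle 2, while every marker had counts in the other libraries of both genotypes. As these are bulk samples, fewer cells of a type and less RNA per cell cannot be told apart.

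**Figure D1:**
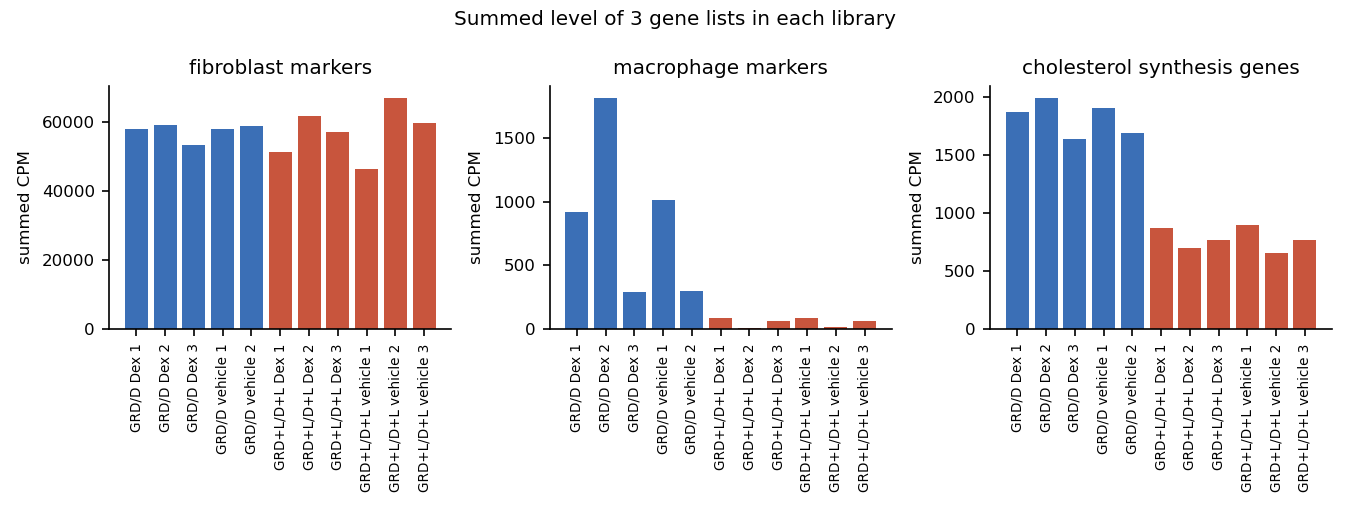
Summed CPM of the fibroblast markers (left), the macrophage markers (middle) and the cholesterol synthesis genes (right) in each GRD/D (blue) and GRD+L/D+L (red) library. The fibroblast sums of the genotypes overlap, the macrophage sum is highest in GRD/D Dex 2 with 1817 CPM, and the cholesterol synthesis sum is 1636 CPM or more in GRD/D and 897 CPM or less in GRD+L/D+L.

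The receptor gene itself was the first to be compared. Nr3c1 had 94.7, 91.6 and 89.5 CPM in GRD/D Dex 1 to 3 and 106 and 104 CPM in vehicle 1 and 2. In GRD+L/D+L it had 117, 263 and 227 CPM with Dex and 127, 249 and 232 CPM with vehicle. All GRD+L/D+L libraries lay above all GRD/D libraries, culture 1 only slightly so, and Nr3c1 was called higher with an LFC of 1.09 ± 0.27 (SE, 3 against 3 cultures, adjusted p = 0.0385). The point changes lie in the coding sequence, so this level does not check the genotype labels.

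Across all 15273 genes tested, 978 were called between GRD+L/D+L and GRD/D, 6.4% of those tested. Of these, 398 rose with the L change (2.61%) and 580 fell (3.8%), and the median LFC of all genes was 0.02. Among the 978 genes, 671 (4.39% of all tested) were also called in the same direction from the Dex libraries alone, in which each of the 6 libraries is a separate culture. These libraries are part of the sums, so this overlap is not independent of the 978 calls. Vehicle libraries alone gave 0 calls with 3 against 2, at a smallest adjusted p of 0.057, and 3329 genes with an unadjusted p under 0.05. When GRD/D vehicle 2 was summed with Dex 3 instead, 844 genes were called, of which 796 were among the 978. The count moved when any 1 culture was left out, which leaves 2 in its genotype. It was 2058, 603 and 613 without GRD+L/D+L culture 1, 2 and 3, and 193 to 266 without any 1 of the GRD/D cultures. In 896 of the 978 genes the CPM of the 6 and the 5 libraries did not overlap, as in 27% of all genes tested.

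The most uniform difference was in cholesterol synthesis, the pathway from acetyl-CoA to cholesterol whose genes are driven by the sterol-sensing factor SREBP2. Of its 19 listed genes, 15 fell with the L change and none rose, against 3.8% of all genes tested that fell. The median LFC of the list was -1.39, beside 0.02 over all genes. All 19 were lower at an adjusted p of at most 0.05 without the fold threshold, a rule that 8.97% of all genes met in this direction, and in all 19 the highest GRD+L/D+L library lay below the lowest GRD/D library, as it did in 13.3% of all genes. In the opposite direction, higher in GRD+L/D+L without overlap, were 13.8% of all genes and 0 of the 19.

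Msmo1 (chr8:64718139-64733792, GRCm38, minus strand), a sterol demethylase of the late pathway, had 132, 143 and 118 CPM in GRD/D Dex 1 to 3 and 139 and 120 CPM in vehicle 1 and 2. In the 6 GRD+L/D+L libraries it ranged from 27.1 to 45.8 CPM with a median of 40.0, which gave an LFC of -1.73 ± 0.16 (adjusted p = 0.0050). Dex and vehicle libraries of a culture lay close together, so the gap was between genotypes and not between treatments. Sqle, the squalene epoxidase, had 112 to 137 CPM in GRD/D and 39.7 to 52.4 CPM in GRD+L/D+L (LFC -1.39). Cyp51, the lanosterol demethylase, had 164 to 197 CPM against 51.6 to 77.0 CPM (LFC -1.44).

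Fdps, the farnesyl diphosphate synthase, fell by 1.94 and Idi1, an isomerase of the isoprenoid steps, fell by 1.63 on the log2 scale. Exons of Cyp51 and Idi1 overlap those of Akap9 and Gm48574 on the other strand. Of the 4 members that missed the fold threshold, Mvk had an LFC of -0.91, Sc5d of -0.87 and Srebf2, which encodes SREBP2, of -0.75. Srebf2 had 182 to 212 CPM in GRD/D and 100 to 133 CPM in GRD+L/D+L, and the genotypes did not overlap.

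The cholesterol list gave 15 falls among the Dex libraries alone, 15 with the regrouped cultures, 16 without GRD+L/D+L culture 1 and 13 in male libraries only. The last fit took 6 GRD+L/D+L libraries of 3 cultures against GRD/D Dex 3 and vehicle 2, which may come from 1 embryo, so it counts libraries and not animals. None of its 19 genes was among the 342 tested genes that were at least 4-fold higher, with 0.5 CPM added, in the macrophage-rich library GRwt/wt vehicle 3 than in both GRwt/wt vehicle 2 and Dex 3, which are libraries of neither genotype compared here. Within GRD/D the summed level was highest in Dex 2 (1997 CPM) and lowest in Dex 3 (1636 CPM), which also had the highest and the lowest macrophage sum. The part of the macrophage difference in the cholesterol result was not tested.

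**Figure D2:**
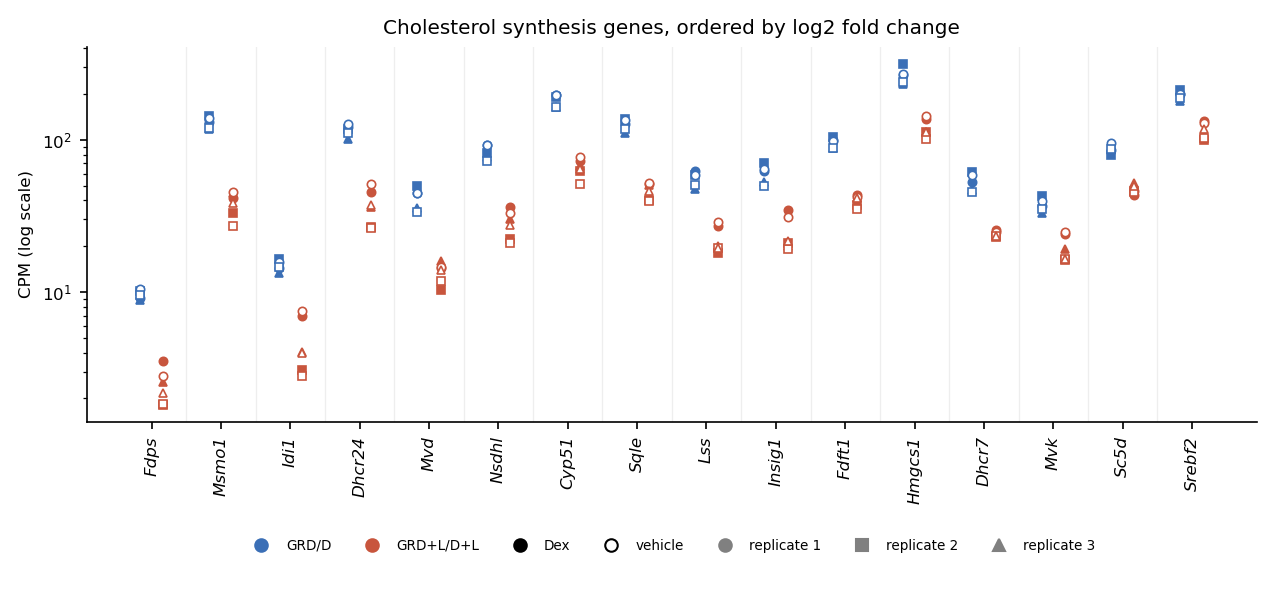
CPM (log scale) of 16 of the 19 cholesterol synthesis genes in each GRD/D (blue) and GRD+L/D+L (red) library, ordered by LFC, with filled symbols for Dex, open symbols for vehicle and the symbol shape giving the replicate number. In every gene all red points lie below all blue points, from Fdps (LFC -1.94) to Srebf2 (-0.75).

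Genes of glycolysis and the hypoxia response were also lower on the whole. Of 23 tested, 5 fell and none rose, beside 3.8% of all genes that fell, namely Aldoc, Car9, Pgk1, Eno1 and Pgam1, and the median LFC was -0.80. A further 11 were lower at an adjusted p of at most 0.05 but short of the fold threshold, 16 in all, against 8.97% of all genes. Aldoc, an aldolase, fell from 11.3 to 22.1 CPM in GRD/D to 0.18 to 2.53 CPM in GRD+L/D+L (LFC -3.31 ± 0.57, adjusted p = 0.016). Pgk1, the phosphoglycerate kinase, had 335, 242 and 289 CPM in GRD/D Dex 1 to 3 and 308.5 and 257.0 CPM in vehicle 1 and 2, and 98.9 to 127 CPM in GRD+L/D+L (LFC -1.36 ± 0.13, adjusted p = 0.0051). Eno1, an enolase, had 466 to 606 CPM against 186 to 266 CPM (LFC -1.21).

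The list was not uniform. Gapdh (LFC -0.997, just short of the threshold) and Ldha (-0.84) were lower without overlap, whereas Hk1, a hexokinase, was at 83.4 to 112 CPM in GRD/D and 147 to 201 CPM in GRD+L/D+L (LFC 0.69) and Pfkp, a phosphofructokinase, at 44.1 to 54.6 against 61.9 to 98.4 CPM (LFC 0.80). Vegfa, a classical hypoxia target, had an LFC of -0.26 with overlapping libraries. In mitochondrial oxidative phosphorylation, 1 of 77 genes fell, Cox7a1, beside 3.8% of all genes, while 42 of the 77 were lower at an adjusted p of at most 0.05, beside 8.97% of all genes, and the median LFC was -0.28. The 79 cytosolic ribosomal protein genes had no call in either direction and a median LFC of -0.22, with 27 lower at an adjusted p of at most 0.05, a rule met in this direction by 8.97% of all genes. Abundant glycolysis and ribosomal genes such as Gapdh and Eno1 have near-identical copies elsewhere in the genome, so their counts of uniquely mapped reads are uncertain. Upper-quartile scaling raised the glycolysis count from 5 to 9 falls. A replicate block that set same-numbered cultures of the 2 genotypes against each other lowered it to 3. Same-numbered cultures did not deviate together across the genotypes (correlations -0.10, -0.17 and -0.02), so this block does not stand for shared cultures.

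Among glucocorticoid-induced genes, 18 of 20 listed were tested, of which 1 rose and 2 fell, with a median LFC of -0.24, beside 2.61% of all genes that rose and 3.8% that fell. Pdk4, a kinase that holds back pyruvate dehydrogenase, rose from 11.5 to 34.4 CPM in GRD/D to 61.5 to 255 CPM in GRD+L/D+L (LFC 2.42 ± 0.57, adjusted p = 0.034), with the highest values in culture 1. Crispld2, a secreted protein, fell from 14.1 to 46.8 CPM to 1.71 to 7.59 CPM (LFC -2.30 ± 0.55, adjusted p = 0.035). The Dex response of Pdk4 was -0.03 ± 0.74 (log2, SE) in GRD/D against 0.02 ± 0.65 in GRD+L/D+L, and that of Crispld2 was 0.63 ± 0.67 and -0.17 ± 0.62, none of them called. Errfi1, a feedback inhibitor of EGF receptor signalling, had an LFC of 1.36 that did not pass the test. Sgk1, a kinase of ion transport, was at 120 to 167 CPM in GRD/D and 56.6 to 78.3 CPM in GRD+L/D+L, with an LFC of -0.95 that missed the fold threshold (adjusted p = 0.010), and the metallothionein genes Mt1 and Mt2 had LFCs of -0.59 and -0.81.

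Fkbp5 (chr17:28399094-28517527, GRCm38, minus strand), whose product FKBP51 is a co-chaperone that restrains GR, fell in the comparison of genotypes with an LFC of -1.41 ± 0.23 (adjusted p = 0.014), but this was a difference under Dex. With Dex it had 116, 93.7 and 93.3 CPM in GRD/D 1 to 3, and 21.4, 35.6 and 30.1 CPM in GRD+L/D+L 1 to 3. With vehicle it had 32.3 and 30.7 CPM in GRD/D and 20.1, 34.0 and 28.9 CPM in GRD+L/D+L. The Dex libraries did not overlap and the vehicle libraries did. The LFC was accordingly -1.79 (adjusted p = 0.0086) among Dex libraries and -0.18 (adjusted p = 0.68) among vehicle libraries.

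Per1 (chr11:69095217-69109960, GRCm38, plus strand), a repressor of the circadian clock, showed a crossing pattern. It had 16.59 and 15.98 CPM in GRD/D with vehicle and 44.5, 41.8 and 37.9 CPM with Dex. In GRD+L/D+L it had 23.81, 28.15 and 25.65 CPM with vehicle and 26.4, 26.0 and 22.0 CPM with Dex. The GRD+L/D+L libraries thus lay between the vehicle and the Dex level of GRD/D under both treatments, and over both treatments Per1 was not called (LFC -0.33, adjusted p = 0.11). Tsc22d3, which encodes GILZ, and Dusp1, a phosphatase of MAP kinases, were not called either, with LFCs of -0.30 and -0.40. Tsc22d3 ranged from 44.7 to 58.9 CPM in GRD/D and from 24.9 to 57.2 CPM in GRD+L/D+L, where culture 1 was the low one. Dusp1 had 11.5 to 15.8 CPM against 9.20 to 11.7 CPM, and its exons overlap those of Ergic1 on the other strand.

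**Figure D3:**
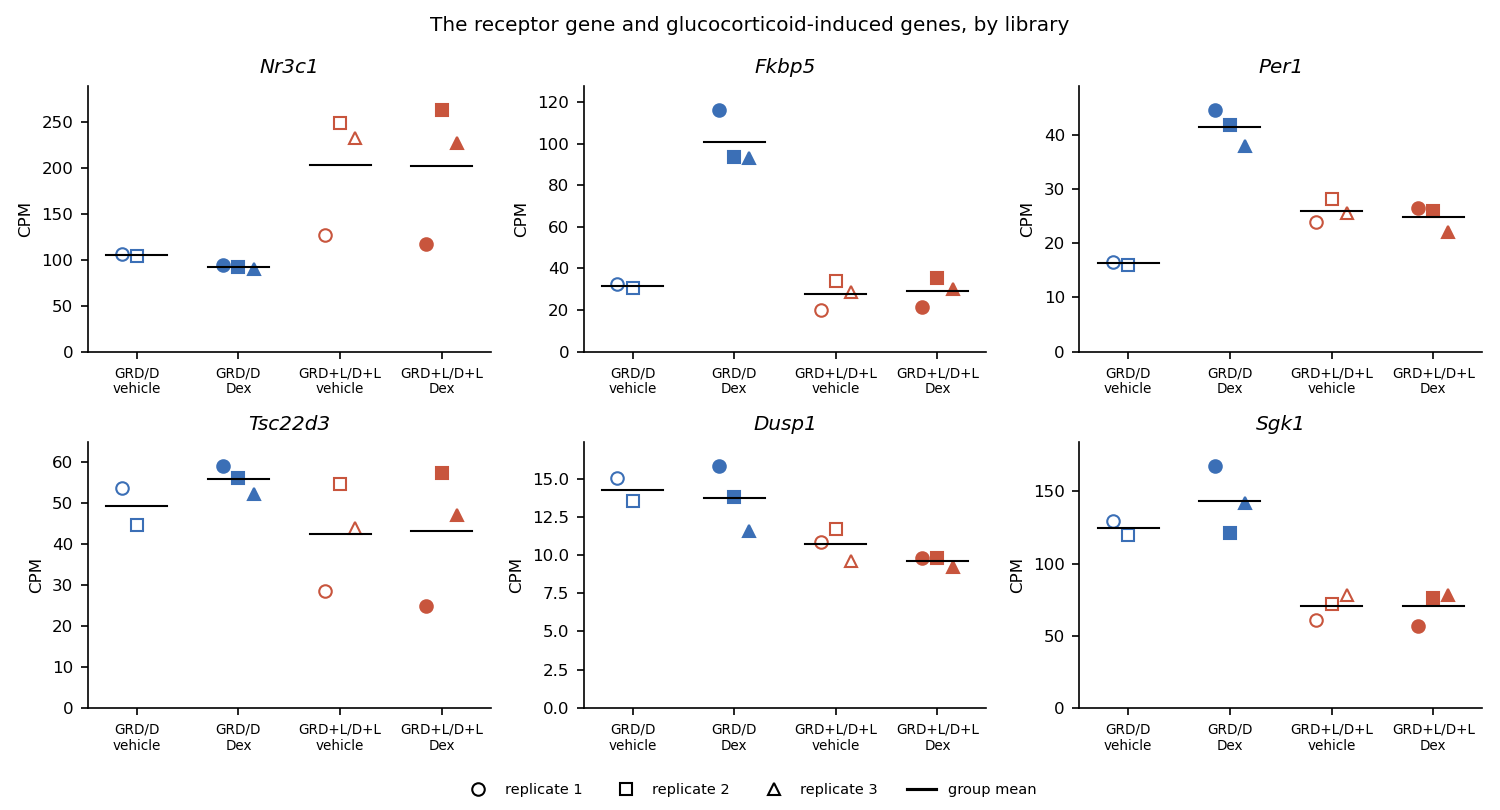
CPM of Nr3c1 and 5 glucocorticoid-induced genes in GRD/D (blue) and GRD+L/D+L (red) with vehicle (open) and Dex (filled), 1 point per library, shape giving the replicate number and the line the group mean. Fkbp5 and Per1 are higher with Dex in GRD/D, with means of 101 and 41.4 CPM, while the Dex and vehicle libraries of GRD+L/D+L overlap in every panel.

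Whether the Dex response differed between the genotypes was tested as an interaction over the 11 libraries. No gene of 15016 was called by edgeR (0%), 205 had an unadjusted p under 0.05, and DESeq2 called 2, Per1 and Fkbp5. This test took no account of shared cultures. With a replicate block that joined the Dex and vehicle libraries of a culture, 14 genes were called. With GRD/D vehicle 2 set against Dex 3 in the block, 34 were called. Per1 and Fkbp5 were among the genes called in both block fits. The smallest edgeR p was that of Per1, whose Dex response was 1.34 ± 0.12 (log2, SE) in GRD/D against -0.07 ± 0.10 in GRD+L/D+L, a difference of -1.41 ± 0.16 (adjusted p = 0.12). By p, the next were Lrrc32, a surface protein that holds latent TGF-beta, with responses of -0.85 and -0.14, and Pld1, a phospholipase, with responses of 0.64 and 0.01, and both had an adjusted p of 1.0. Lrrc32 had 111 and 107 CPM in GRD/D with vehicle, 63.15, 52.63 and 65.34 CPM with Dex, and 56.3 to 64.3 CPM in GRD+L/D+L under either treatment. Fkbp5 had a response of 1.68 ± 0.26 in GRD/D against 0.06 ± 0.22 in GRD+L/D+L, and its difference of -1.61 ± 0.33 had an unadjusted p of 0.00083 and an adjusted p of 1.0. Per1 was the gene called with Dex within GRD/D (adjusted p = 0.0189), where Lrrc32 had an adjusted p of 0.0352 without reaching the fold threshold, and edgeR called 0 genes within GRD+L/D+L, where 89 had an unadjusted p under 0.05. GRD+L/D+L libraries of the same number paired, and a fit of these 6 libraries with the replicate block, added after seeing the data, also called 0 of 13722 genes. In that fit 971 genes had an unadjusted p under 0.05 and 11 an adjusted p of at most 0.05 without reaching the fold threshold, with the interferon-stimulated genes Ifit1 (log2 difference -0.97) and Oasl2 (-0.94), named after their values were seen, as those of the largest size. The blocked Dex response in GRD+L/D+L was -0.07 ± 0.08 for Per1, 0.07 ± 0.07 for Fkbp5, -0.17 ± 0.11 for Dusp1 and -0.14 ± 0.06 for Lrrc32, with adjusted p of 0.924, 0.911, 0.811 and 0.602.

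Over the 18 tested genes of the induced list, the Dex response was above 0 for 12 in GRD/D (median 0.16) and for 8 in GRD+L/D+L (median -0.04). The response was smaller in GRD+L/D+L for 14 of the 18, beside 50.5% of all genes, with a median difference of -0.13. Of 19 tested genes in the list of the receptor with its chaperones and coregulators, Nr3c1 rose and Hsd11b1, the enzyme that regenerates active glucocorticoid, fell from low levels (0.49 to 2.00 CPM in GRD/D, LFC -2.01), beside 2.61% of all genes that rose and 3.8% that fell. At an adjusted p of at most 0.05 without the fold threshold 7 of the 19 were higher, a rule that 11.4% of all genes met, and 8 were higher without overlap, against 13.8% of all genes. The median LFC was 0.20, and the summed level was 4044 to 4295 CPM in GRD/D and 4726 to 4979 CPM in GRD+L/D+L. The corepressor gene Ncor1 (LFC 0.65, adjusted p = 0.0057) and the acetyltransferase gene Ep300 (LFC 0.61, adjusted p = 0.0074) were higher without overlap but under the fold threshold, and the HSP90 genes Hsp90aa1 and Hsp90ab1 had LFCs of 0.04 and 0.20.

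Of the genes that rose with the L change, the largest rises among protein-coding genes of at least 5 CPM without overlap were in Dlx5, Sfrp4, Nptx1, Ano5, Aldh1a3, Arc, Fbln7, Col8a2, Cdhr1 and Ptchd1, with LFCs from 5.07 down to 3.10. Dlx5, a homeobox factor of bone and craniofacial development, had 0.097 to 0.29 CPM in GRD/D and 2.31 to 9.08 CPM in GRD+L/D+L. Sfrp4, a secreted Wnt antagonist, had 1.12 to 1.95 CPM in GRD/D and 14.9 to 76.3 CPM in GRD+L/D+L (LFC 4.81 ± 0.60, adjusted p = 0.0084). Nptx1 (chr11:119538719-119547753, GRCm38, minus strand), a pentraxin known from synapses, was the most even of them, with 1.24, 1.70 and 1.40 CPM in GRD/D Dex, 2.25 and 1.12 CPM in vehicle and 28.7 to 56.9 CPM in GRD+L/D+L (LFC 4.66 ± 0.30, adjusted p = 0.0040).

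Others were carried by some of the cultures. Ano5 had 44.3 to 49.7 CPM in GRD+L/D+L cultures 2 and 3 but 5.64 and 5.85 CPM in culture 1, and Cdhr1 likewise had up to 22.7 CPM there against 3.33 and 2.62 CPM in culture 1. Arc, an immediate early gene, and Fbln7, a fibulin, went the other way and were highest in culture 1, at 64.2 and 39.4 CPM and at 26.6 and 25.0 CPM. Aldh1a3, a retinoic acid-producing enzyme, was highest in culture 2, at 27.5 and 29.8 CPM. In all of these the lowest GRD+L/D+L library was above the highest GRD/D library, as the rule that chose them required.

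**Figure D4:**
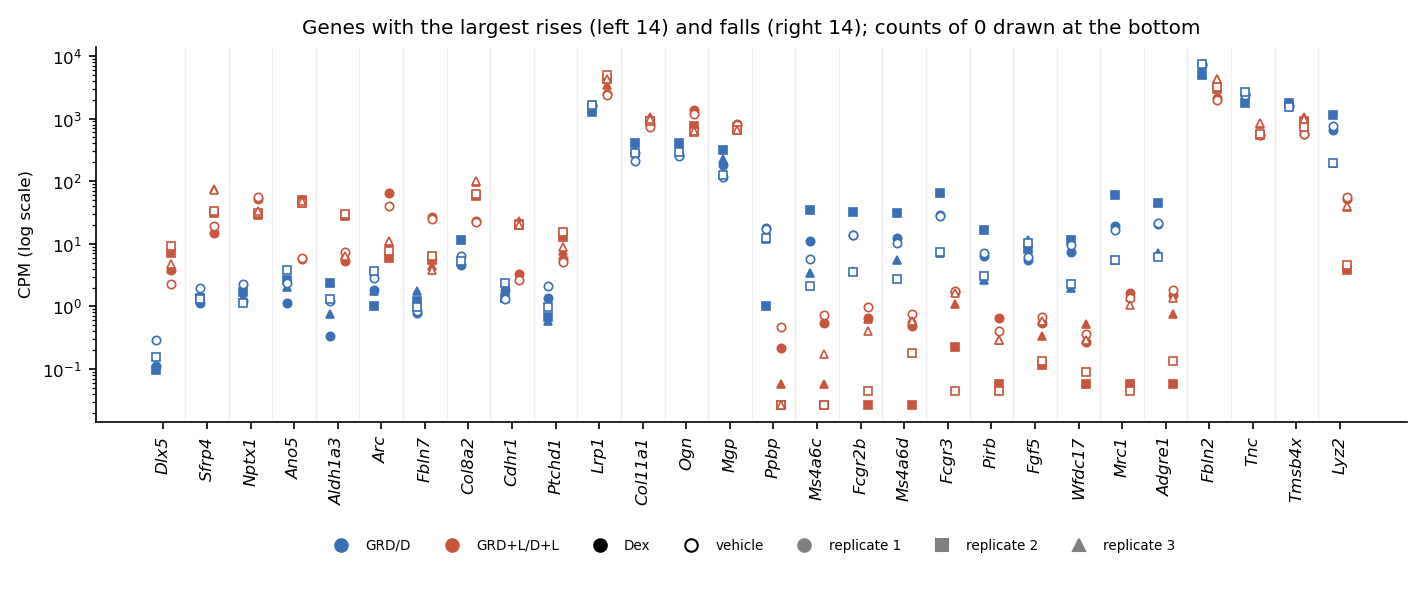
CPM (log scale) of the genes named for the largest rises (10 by LFC, then 4 by CPM) and the largest falls (10 by LFC, then 4 by CPM) in each GRD/D (blue) and GRD+L/D+L (red) library, filled for Dex and open for vehicle, shape giving the replicate number, with counts of 0 drawn at the bottom. The groups do not overlap in any of these genes, by the rule that chose them, and the rises run from Dlx5 (LFC 5.07) and the falls from Ppbp (-6.54).

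In terms of abundance, the largest gains were in Lrp1, Col11a1, Ogn and Mgp. Lrp1, an endocytic receptor of the LDL receptor family, had 1266 to 1662 CPM in GRD/D and 2377 to 4884 CPM in GRD+L/D+L (LFC 1.28 ± 0.24, adjusted p = 0.019). Col11a1, a fibrillar collagen, rose from 209 to 405 CPM to 736 to 1049 CPM (LFC 1.59 ± 0.17, adjusted p = 0.0063). Ogn, a small leucine-rich proteoglycan, had 254 to 407 CPM against 619 to 1361 CPM, and Mgp, an inhibitor of calcification, 119 to 318 CPM against 646 to 833 CPM (LFC 1.88). Among 39 tested collagen genes 3 rose, Col8a2, Col9a2 and Col11a1, and 1 fell, Col7a1 of the anchoring fibrils (54.6 to 74.1 CPM against 13.5 to 28.9 CPM), which is 4 of 39 beside 6.4% of all genes called. The fibrillar collagen genes Col1a1, Col1a2 and Col3a1 had LFCs of -0.02, -0.11 and 0.41, none of them called.

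Of 36 tested Hox genes, which set position along the body axis, 2 rose and 7 fell (median LFC -0.13), beside 2.61% and 3.8% of all genes. Of 36 limb and trunk patterning factors 3 rose and 2 fell (median LFC -0.40), which is 5 of 36 beside 6.4% of all genes called in either direction. Foxd1 (LFC 2.77) and Meis2 (1.34) rose, and Shox2 (-1.53) and Tbx15 (-1.40), both factors of limb and shoulder development, fell. Hoxc9 fell from 8.41 to 9.05 CPM to 1.95 to 2.57 CPM (LFC -1.92 ± 0.14, adjusted p = 0.0040) and Hoxd8 from 38.1 to 44.0 CPM to 3.60 to 14.4 CPM. Hoxc11 had 46 counts in all over the 5 GRD/D libraries and none in the 6 GRD+L/D+L libraries, which makes it at least 17.7-fold lower against a floor of 3 counts over the 6 libraries. Hoxa6 and Hoxa3 rose, Hoxa6 to 9.49 to 11.7 CPM in cultures 2 and 3 and to 1.18 and 1.49 CPM in culture 1, which overlapped with GRD/D.

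The Hox counts depended on the cultures. They were 9 rises and 15 falls without GRD+L/D+L culture 1, 2 and 4 with Dex libraries only, and 1 and 4 with the regrouped cultures. In male libraries only they were 0 and 2, and under the replicate block across genotypes 0 and 1. The limb and trunk patterning factors gave 5 rises and 12 falls (median LFC -0.91) without GRD+L/D+L culture 1. Their counts stayed at 3 and 2 with Dex libraries only and with the regrouped cultures, and were 2 and 0 under the replicate block across genotypes. The cultures were made from minced embryos without head and organs, and the part of body regions in these results was not tested.

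Among 31 secreted regulators of the Wnt, BMP and TGF-beta pathways, 1 rose, Sfrp4, and 3 fell, among them the Wnt ligand genes Wnt4 and Wnt9a, beside 2.61% and 3.8% of all genes. These counts were 3 and 10 without GRD+L/D+L culture 1, and stayed at 1 and 3 with Dex libraries only and with the regrouped cultures. Wnt4 had 8.04, 7.64 and 8.19 CPM in GRD/D Dex 1 to 3, 16.01 and 16.23 CPM in vehicle 1 and 2, and 1.31 to 3.18 CPM in GRD+L/D+L (LFC -2.27 ± 0.33, adjusted p = 0.0114). The growth factor gene Fgf5 fell from 5.57 to 11.4 CPM to 0.11 to 0.67 CPM (LFC -4.46 ± 0.58, adjusted p = 0.0090). The matrix genes Tnc, for tenascin C, and Fbln2, for fibulin 2, were among the largest losses of abundance. Tnc (chr4:63959785-64047015, GRCm38, minus strand) had 1768 to 2619 CPM in GRD/D and 542 to 841 CPM in GRD+L/D+L (LFC -1.84 ± 0.18, adjusted p = 0.0057), with exons that overlap those of 8030451A03Rik on the other strand, and Fbln2 had 4929 to 7428 CPM against 2005 to 4345 CPM (LFC -1.11). Tmsb4x, which encodes an actin-binding thymosin, fell by 1.06 on the log2 scale. The smooth muscle and myofibroblast markers had 0 calls among 12, although Acta2 was at 269 CPM in the lowest GRD+L/D+L library, of culture 1, against 1809 to 2251 CPM in GRD/D.

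Of 17 genes of the p53 and senescence list, 2 fell, none rose and 7 had an LFC above 0 (median -0.05), beside 3.8% of all genes that fell. Those that fell are inhibitors of the cell cycle, Cdkn2b from 77.6 to 137 CPM to 36.1 to 64.5 CPM and the imprinted gene Cdkn1c from 356 to 715 CPM to 174 to 254 CPM, while none of 26 cell cycle genes was called. Meg3, a maternally expressed long noncoding RNA, rose from 192 to 333 CPM to 348 to 898 CPM (LFC 1.41 ± 0.29, adjusted p = 0.024), and Dlk1 of the same imprinted cluster rose with overlapping libraries. Il33, an alarmin cytokine, was the single call among 14 cytokine and chemokine genes, beside 2.61% of all genes that rose, and went from 3.94 to 15.8 CPM to 20.8 to 32.0 CPM (LFC 1.64). That list had 3 rises and 3 falls without GRD+L/D+L culture 1, and no call with Dex libraries only or with the regrouped cultures. There were 0 calls among 24 interferon-stimulated genes, 13 IGF axis genes and 21 matrix proteases and inhibitors. Without GRD+L/D+L culture 1, 4 interferon-stimulated genes fell, 2 IGF axis genes rose and 2 fell, and 1 matrix protease or inhibitor fell.

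Many of the largest falls were in genes of macrophages. Of the 10 largest among called protein-coding genes of at least 5 CPM without overlap, Ms4a6c, Fcgr2b, Ms4a6d, Fcgr3, Pirb, Wfdc17, Mrc1 and Adgre1 are known from macrophages and other myeloid cells, Ppbp encodes a chemokine of platelets and Fgf5 is the growth factor above, with LFCs from -6.54 to -4.26. Of the 13 macrophage markers 9 fell and none rose, with a median LFC of -4.08, beside 3.8% of all genes that fell, and 11 were lower without overlap, beside 13.3% of all genes. Lyz2, the lysozyme gene and the most abundant of them, had 655, 1135 and 194 CPM in GRD/D Dex 1 to 3 and 747 and 193 CPM in vehicle 1 and 2, and 3.82 to 55.8 CPM in GRD+L/D+L (LFC -4.00 ± 1.00, adjusted p = 0.040). The male GRD/D libraries were the low ones in GRD/D, and GRD+L/D+L culture 2 was the lowest of all, with 3.82 and 4.56 CPM.

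Of the 580 genes that fell, 164 (28.3%) belonged to the 342 genes high in the macrophage-rich GRwt/wt vehicle 3 library, beside 2.24% of all genes tested and 1 of the 398 that rose. Without those 342 genes, 388 genes rose and 422 fell. The macrophage count of 9 falls was 7 with the regrouped cultures and 12 under DESeq2. Over the 11 libraries with treatment as a covariate 12 fell (median LFC -4.13), and 5 with sex as a further covariate (median -2.60). In male libraries only 1 fell (median -2.58). These 3 fits count libraries and not cultures. Under the replicate block across genotypes, whose numbers do not mark shared cultures, none of the 13 was called, with a median LFC of -4.10.

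A last comparison asked whether adding L to the D receptor went along with the same differences as adding L to the unmodified receptor, for which the 12 libraries of GRL/L and GRwt/wt come from other cultures, 3 per genotype with Dex and vehicle libraries summed by number. Between GRL/L and GRwt/wt, 4.29% of 16204 genes were called higher and 2.14% lower. Of the 398 genes that rose in the D background, 139 also rose in GRL/L and 2 fell. Of the 580 that fell in the D background, 74 also fell in GRL/L and 5 rose. In GRL/L, libraries of the same number were each other's nearest (0.996 to 0.997). In GRwt/wt they were not, since vehicle 2 was nearest to Dex 3 (0.990) and vehicle 3 to GRD/D Dex 2 (0.988), so the summed GRwt/wt cultures may join libraries of different embryos. In GRwt/wt, 2 libraries stood apart, vehicle 1 by its low correlation with all others (0.916 at most) and vehicle 3 by its macrophage genes. Without both, 6.2% of 16149 genes were called higher in GRL/L and 3.23% lower. In that fit 143 of the 398 also rose and 7 fell, while of 579 genes that fell 79 also fell and 137 rose. The macrophage markers went with this, since 0 of 13 were called in GRL/L with all libraries and 11 rose without the 2. Their summed level was 5170 CPM in GRwt/wt vehicle 3, between 18.4 and 104 CPM in the rest of GRwt/wt and between 322 and 791 CPM in GRL/L.

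**Figure D5:**
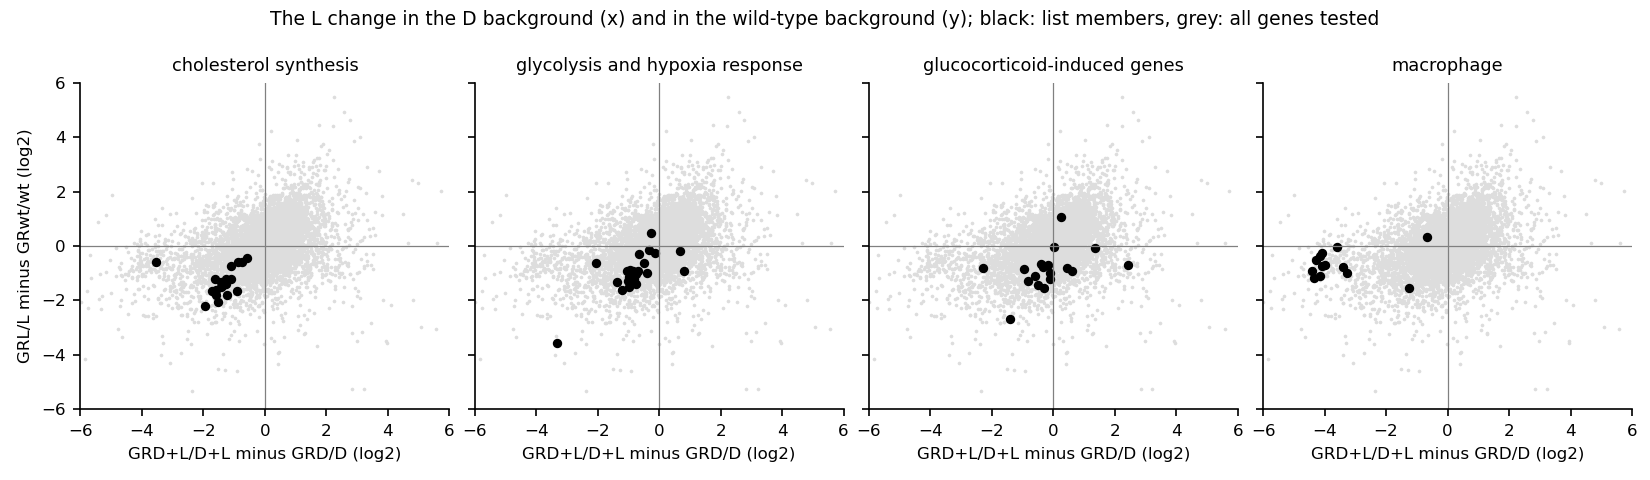
LFC of GRD+L/D+L minus GRD/D (x axis) and of GRL/L minus GRwt/wt (y axis) for all genes tested (grey) and the members of 4 lists (black). The 19 cholesterol synthesis genes lie below 0 on both axes, with medians of -1.39 and -1.38, while the macrophage markers, with a median of -4.08 on the x axis, have a median of -0.75 on the y axis with all libraries and of 4.27 without GRwt/wt vehicle 1 and 3.

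Cholesterol synthesis genes were lower in both backgrounds. Between GRL/L and GRwt/wt 13 of 19 fell and none rose, with a median LFC of -1.38, and 14 fell without the GRwt/wt libraries that stood apart. Fdps had an LFC of -2.20 and Msmo1 of -1.65 there. The summed level of the 19 genes, scaled over all 23 libraries, was 705 to 1192 CPM in GRL/L and 657 to 897 CPM in GRD+L/D+L. In GRwt/wt it was 2145 to 2547 CPM in all but 1 library, and GRwt/wt Dex 2 had 676 CPM. Glycolysis and hypoxia genes gave 11 falls of 23 and no rise between GRL/L and GRwt/wt, with Aldoc (LFC -3.56), Pgk1 (-1.34) and Eno1 (-1.62) among them. Of the glucocorticoid-induced list 9 of 20 fell between GRL/L and GRwt/wt. Fkbp5 had an LFC of -2.70 there and of -1.41 in the D background. These sums join Dex and vehicle libraries. Fkbp5 spanned 18.8 to 379 CPM over the GRwt/wt libraries and 24.9 to 30.3 CPM over those of GRL/L. Tsc22d3 spanned 46.2 to 235 CPM and 33.6 to 49.7 CPM. The part of the wild-type Dex response in these falls was not tested. Nr3c1 ranged from 130 to 137 CPM in GRL/L. In GRwt/wt it had 44.3, 80.2 and 76.3 CPM in Dex 1 to 3 and 3.92, 71.3 and 87.9 CPM in vehicle 1 to 3, so the library labelled GRwt/wt vehicle 1 was far below the rest. The LFC of Nr3c1 was 1.15 (adjusted p = 0.0586) with all libraries and 1.04 (adjusted p = 0.0126) without vehicle 1 and 3. Meg3 and Lrp1 rose in both backgrounds, with LFCs of 2.43 and 1.17 in GRL/L.

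Among the largest rises, Sfrp4 and Dlx5 had LFCs of -1.98 and -2.98 between GRL/L and GRwt/wt, neither of them called, and Nptx1 had 0.10. The difference between the backgrounds passed the test in none of these with all libraries (adjusted p = 0.105 for Sfrp4, 0.121 for Dlx5 and 0.0781 for Nptx1), and in all of them without the GRwt/wt libraries that stood apart (0.0223, 0.0243 and 0.00601). The direct test of the difference between the backgrounds, over all 12 cultures, called 12 of 16204 genes (0.0741%), 4 where the L change was more positive in the D background and 8 where it was more negative. The former included Trim47, Slc24a3 and Sesn1, and the latter were Cma2, Pde4b, Frem1, Pla2g7, Crabp1, Aff3, Podn and Wnt5a. Pde4b, a phosphodiesterase that degrades cAMP, had 18.9 to 22.7 CPM in GRD/D and 2.83 to 8.34 CPM in GRD+L/D+L, and 15.3 to 18.9 CPM in GRL/L against 4.08 to 12.1 CPM in GRwt/wt, so the order of the genotypes was opposite in the backgrounds (difference -3.21 ± 0.34, adjusted p = 0.010). Crabp1, a retinoic acid-binding protein, was at 69.3 to 166 CPM in GRD+L/D+L and at 416 to 881 CPM in every library of the other genotypes. Aff3 behaved likewise, at 9.11 to 18.4 CPM against 32.4 to 57.9 CPM. Crabp1 and Aff3 were picked out after their values were seen. Without the GRwt/wt libraries that stood apart the test called 674 genes, 198 more positive and 476 more negative, among them the same 12.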

How the data were processed

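Per the methods and the submitters' processing notes, the authors aligned reads of TruSeq libraries to mm10 with HISAT2 2.1.0, discarded those without a unique position, assigned the rest to genes with featureCounts 2.0.0 and deposited raw counts per Ensembl gene. The annotation release and strandedness are not given in the sources used here, so counts of overlapping genes such as Dusp1 are uncertain. Of 55487 identifiers, 55227 occur in GENCODE M21 (GRCm38), the source of the symbols and of the coordinates, which count from 1.

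Counts were summed per genotype and replicate number and compared by edgeR 4.0.16, quasi-likelihood test, (R 4.3.3) after TMM scaling and filterByExpr, with a prior count of 0.125 and Benjamini-Hochberg adjustment, and SEs were derived from the LFC and the F statistic. The Dex interaction used the 11 libraries and 4 group means, and the comparison of backgrounds used the sums of all 12 cultures. limma 3.58.1 and DESeq2 1.42.0 served as alternatives. The tests were tried on simulated data in which 200 genes were changed. Every pair of replicates differed by more than sampling noise (lowest mean chi-square per gene 9.62). Same-numbered libraries paired in GRD+L/D+L but not in GRD/D number 2, so the replicate block is an alternative. For the Dex response this block was the culture. For the comparisons of genotypes and of backgrounds it was the replicate number across genotypes.

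Named genes were Nr3c1, Fkbp5, Tsc22d3, Dusp1 and Per1; the 10 largest rises and 10 largest falls by LFC and the 4 largest per direction by CPM among called protein-coding genes of at least 5 CPM whose libraries did not overlap; up to 4 called members per list with uncalled members for contrast; and the genes with the smallest p or largest difference in the other tests. Members, lists and tests were chosen with earlier results of these data known. A few genes that these rules select are not reported here. Promoter and protein sequences were not used here, because the counts do not bear on them.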

Additional observations from a re-analysis of the deposited data

Results flagged for a closer look

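The difference between genotypes with and without the L change was itself different between the D background and the wild-type background in 12 genes, by the test of that difference. The L change, line and litter cannot be told apart here. By size, the differences (D background minus wild-type background, log2) were 2.05 for Trim47 and 1.82 for Slc24a3, and -6.88 for Cma2, -3.21 for Pde4b and -3.18 for Frem1. Frem1, a basement membrane protein, had 14.9 to 27.0 CPM in GRD/D and 5.61 to 12.2 CPM in GRD+L/D+L, and 49.1 to 86.5 CPM in GRL/L against 4.08 to 25.6 CPM in GRwt/wt. Cma2, a mast cell protease gene, rests on low counts, with at most 4.51 CPM in any library. Groups held 2 or 3 libraries per genotype and treatment and were not screened for single outlying values.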

How the results depend on the processing

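The 978 calls between the genotypes stayed within 1.5 times that count under 13 alternatives. The count moved to 0 with vehicle libraries only, 651 with at least 10 counts in every culture, 3112 with adjusted p alone, 220 with the replicate block (216 of them among the 978) and 491 with male libraries only, and ranged from 193 to 2058 when 1 culture was left out. Same-numbered cultures of the genotypes did not deviate together (correlations -0.10, -0.17 and -0.02), so the numbers pair nothing across genotypes. For the difference of the Dex response, the replicate block called 14 genes and the crossed block, with GRD/D vehicle 2 set against Dex 3, called 34. DESeq2 called 2, and leaving out any of the 11 libraries called 0 throughout. For the 12 genes that differed between backgrounds, the count was 56 without GRwt/wt vehicle replicate 1, 583 without vehicle replicate 3, 674 without both, 455 with Dex libraries only, 426 with DESeq2, 1 with the replicate block, and 2 to 496 when 1 culture was left out. The causes of these moves were not tested, except that smaller sets of libraries held fewer samples.

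Of 1647 LFCs of 74 named genes recomputed under the alternatives, 1240 kept direction and call, 404 kept only the direction and 3 changed sign, all in genes not called. These were Per1 (0.67 with vehicle libraries only, 0.018 with treatment and sex as covariates) and Pld1 (0.26 with vehicle libraries only). Nr3c1 kept its direction throughout, from 0.88 to 1.34, and lost its call under 10 of 23 alternatives, and Fkbp5 under 7. Sex as a covariate could not be fitted to the culture sums, since 1 sum held both sexes, and was fitted to the 11 libraries, counting libraries and not cultures. That fit gave 734 calls, and the same fit without sex gave 1253.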

Other observations

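Cell type markers other than those above gave few calls, beside 2.61% of all genes that rose and 3.8% that fell. Of 10 tested neural and glial markers, 2 fell, among them Tubb3 (20.2 to 29.2 CPM in GRD/D against 6.45 to 10.9 CPM in GRD+L/D+L). Of 6 adipocyte markers 2 rose, Pparg, the adipogenic nuclear receptor (3.34 to 4.38 CPM against 5.86 to 18.3 CPM), and Dlk1, whose libraries overlapped. Only these 2 had an LFC above 0, and the median LFC of the adipocyte markers was -0.24. No skeletal muscle (3 tested), endothelial (6), epithelial (3) or cartilage and bone (4) marker was called. The summed level of the cartilage and bone list was nevertheless 3362 and 3520 CPM in the libraries of GRD+L/D+L culture 1 and 161 to 434 CPM in those of cultures 2 and 3, against 1707 to 1760 CPM in GRD/D. Spp1, which encodes osteopontin and made up most of that sum in GRD/D, had 1593 to 1670 CPM in GRD/D, 3146 and 3026 CPM in GRD+L/D+L culture 1 and 110.6 to 372.2 CPM in cultures 2 and 3 (LFC -0.46, adjusted p = 0.794). Of 20 genes of the ATF4 amino acid stress response, 1 fell, beside 3.8% of all genes, with a median LFC of -0.41 over the list. The gene was Atf3 (LFC -2.25), which is also among the 342 genes high in the macrophage-rich GRwt/wt vehicle 3 library.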
